A study of Mus musculus with 32 samples.

Results

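The Myc family of transcription factors was followed at its own genes. Every peak that overlapped, by at least 1 bp, a window of 30 kb around Myc (chromosome 15 from 61800000 to 61830000), Mycn (chromosome 12 from 12930000 to 12960000) or Mycl (chromosome 4 from 122660000 to 122690000) of the mouse build mm9 was taken from the 26 peak lists of a chromatin immunoprecipitation and sequencing (ChIP-seq) study. The windows held 58 of the 387563 peaks of the series. Mycn held 36 of them, in 17 of the 26 lists, Myc held 16 in 12 lists and Mycl held 6 in 6 lists. The windows were fixed by position and not by signal. No annotation of mm9 was used, so a peak is placed in a window and relative to other peaks, not on an exon or intron.

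Myc, Mycn and Mycl encode basic helix-loop-helix leucine zipper proteins that pair with Max, bind E-box sequences and promote the transcription of genes for growth, metabolism and cell division. In mouse embryonic stem (ES) cells Myc and Mycn are known to support self-renewal and proliferation, and Mycl is the other member of the family. A promoter in use usually carries trimethylated lysine 4 of histone H3 (H3K4me3), acetylated lysine 9 of histone H3 (H3K9ac) and RNA polymerase II. TAF5L and TAF6L belong to SAGA-type coactivators, which carry a histone acetyltransferase.

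All cells were of the J1 mouse ES line, grown with serum and leukaemia inhibitory factor (LIF). The study compared wild-type cells with Taf5l-KO and Taf6l-KO cells, 1 library per genotype and target. The targets were H3K4me3, H3K9ac, RNA polymerase II in total (RNAP) or phosphorylated on serine 5 (RNAP-ser5) or serine 2 (RNAP-ser2), Oct4 and Myc. Serine 5 phosphorylation is the form known at promoters and serine 2 phosphorylation the form of elongation. Streptavidin pulled down TAF5L and TAF6L that carried the tag Flag-Biotin (FB), from 2 lines each, A5 and A6 for TAF5L-FB and 15 and 9 for TAF6L-FB, whose genotype is labelled WT, and cells with the biotin ligase BirA were the control. For each knockout the file headers name a single input, and the labels do not say whether the knockout cells were 1 clone. Without replicates no test between genotypes was possible, and a peak that is not listed may lie below the threshold of its list.

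The 21 antibody libraries held 1702363 to 22968606 unique tags and the 5 streptavidin libraries 18292747 to 27775010. RNAP-ser5 in Taf6l-KO was the shallowest, with 92.6% of its tags removed as duplicates. With the Myc antibody 34 peaks were listed for Taf5l-KO and 23 for Taf6l-KO, called with modelled fragments of 51 and 50 bp, about the size of the 50 bp tags. The TAF5L-FB line A6 list held 7 peaks against 136 in line A5.

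RefSeq promoter sequences of 2 of the 3 genes were at hand, for Mycn and Mycl. The 250 bases before the gene start are shown because H3K4me3 and RNAP peaks were listed at both windows in every genotype. They come from GRCm38.p6, another build than the peaks, so their coordinates cannot be set against the peaks. The Mycn promoter (minus strand, chr12:12941837-12942086) is written with TTTGGCGC, the letters of an E2F-type site, in capitals, and the Mycl promoter (plus strand, chr4:122995681-122995930) with the GC box letters GGGCGG and the TATA box letters TATAAA in capitals.
Mycn: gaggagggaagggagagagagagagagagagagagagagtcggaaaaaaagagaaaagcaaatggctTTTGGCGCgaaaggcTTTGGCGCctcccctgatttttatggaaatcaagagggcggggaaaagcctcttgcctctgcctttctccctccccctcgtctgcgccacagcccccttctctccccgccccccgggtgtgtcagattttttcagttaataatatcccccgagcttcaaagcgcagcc
Mycl: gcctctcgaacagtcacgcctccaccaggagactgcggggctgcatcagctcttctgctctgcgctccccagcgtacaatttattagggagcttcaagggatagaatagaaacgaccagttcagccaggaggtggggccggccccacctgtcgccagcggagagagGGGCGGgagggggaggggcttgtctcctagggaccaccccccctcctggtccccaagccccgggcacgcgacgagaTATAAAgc

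Both strands of 300 bases per gene (250 before and 50 after the start) were searched for 5 motifs. TTTGGCGC occurred at 2 places in the Mycn promoter, from base 68 and from base 83 of the 250 shown, and in 0.514% of the 32851 promoters in the table. GGGCGG occurred at 2 places in Mycn and at 1 in Mycl, and in 35.7% of all promoters. TATAAA was found in Mycl but not in Mycn, and in 13.6% of all promoters. In Mycl it began at base 243 of the 250 shown, at -8 from the gene start. Whether these letters act as a TATA box there was not tested. The E-box CACGTG (7.15% of all promoters) and the octamer ATGCAAAT (1.74%), the latter bound by Oct4, were in neither. The motifs shown in capitals did not overlap each other. GC content was 54.8% for Mycn and 63.6% for Mycl, against a median of 52.4% over all promoters.

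The 3 windows differed in how much was listed in them, as the count of peaks by list shows. H3K4me3 and RNAP were the antibodies with a peak in all 3 windows in all 3 genotypes. RNAP-ser2 was listed at Myc and Mycn in every genotype and never at Mycl. Oct4 was listed at Myc and Mycn, and the tagged proteins were listed at Mycn alone. No peak of the H3K9ac, Myc antibody or BirA lists lay in any window.

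**Figure D1:**
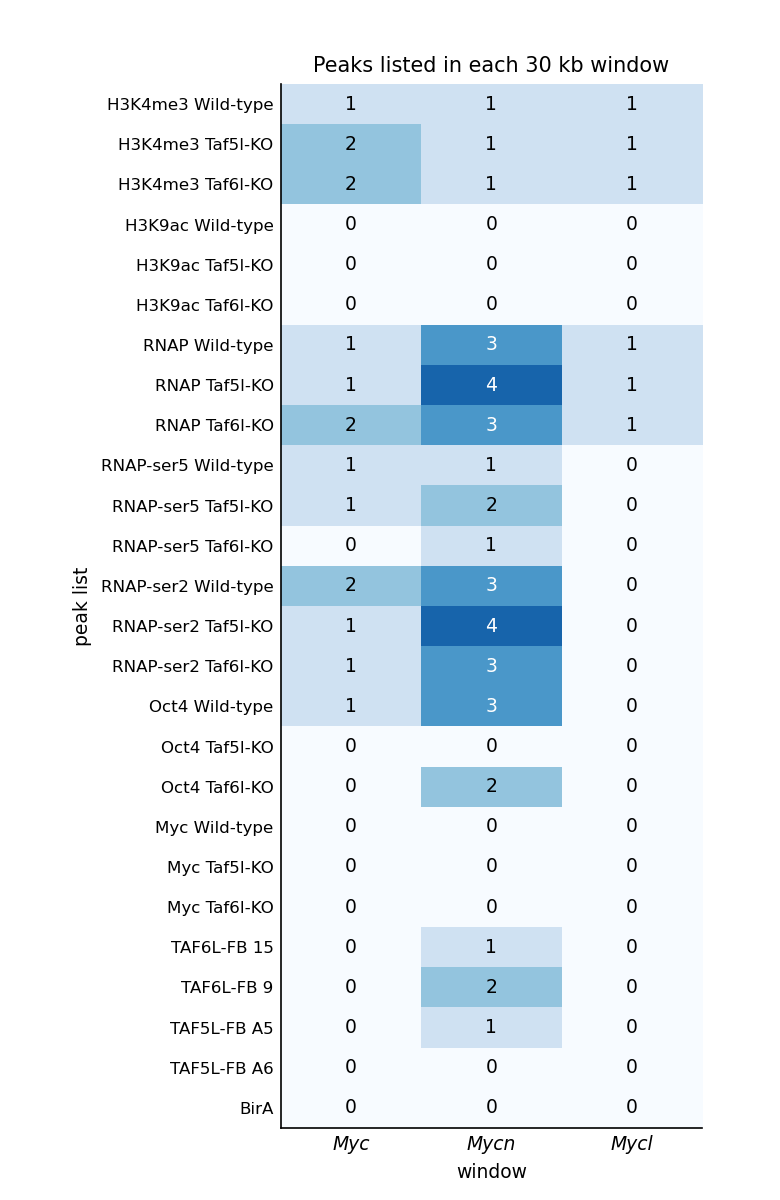
Number of peaks in each 30 kb window (columns) for each of the 26 lists (rows), with darker cells for more peaks. Mycn held peaks in 17 lists, Myc in 12 and Mycl in 6, and the rows of H3K9ac, Myc antibody and BirA are at 0 throughout.

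H3K4me3, the mark of active promoters, was listed at all 3 genes in all 3 genotypes. The fold enrichment, a ratio of pileup to local input background that the authors' peak caller gave to each peak, serves below to place a peak in its own list, and ranks from lists of different lengths show no change. At Mycn a single wide peak ran from 12943497 to 12949779 in wild-type cells, 6283 bp, the 100th widest of 32370. It was 6111 bp in Taf5l-KO (43rd widest of 32098) and 5876 bp in Taf6l-KO (33rd of 29463). Mycn was thus within the widest 0.309% of its list in each genotype, while its fold enrichments were 8.28, 8.21 and 6.17, 24.9%, 32.8% and 53.2% of the way down the lists.

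The Myc window also held a wide H3K4me3 peak in wild-type cells, from 61815563 to 61819862 (4300 bp, 414th widest, fold enrichment 6.89). In Taf5l-KO it ran from 61815720 to 61819895 (4176 bp, 281st widest of 32098, fold enrichment 5.92). In Taf6l-KO the same stretch was called as 2 peaks of 1679 and 1530 bp, with fold enrichments of 8.21 and 4.75, separated by 821 bp that were not listed. A wild-type peak met by 2 or more Taf6l-KO peaks was found for 0.985% of all wild-type H3K4me3 peaks and for 7.91% of the widest 10% of them. Taf5l-KO listed a further short peak from 61820905 to 61821210 (306 bp, fold enrichment 3.52), near the bottom of its list at 97.7% and 1042 bp beyond the wild-type peak.

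Mycl had a narrower H3K4me3 peak, of 1981, 1816 and 1652 bp in the wild type and the Taf5l and Taf6l knockouts. In wild-type cells it ran from 122672468 to 122674448 and ranked 4651st in width. Its fold enrichments of 7.64, 8.83 and 7.45 placed it 29.8%, 28.3% and 42.0% from the top. By enrichment the 3 wild-type peaks lay 24.9% to 36.7% from the top of their list, and by width 0.309% to 14.4%.

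All 3 wild-type H3K4me3 peaks were overlapped in Taf5l-KO and in Taf6l-KO, shares of 100% with exact 95% intervals from 29.2%. Over the whole wild-type list 84.6% and 80.8% were overlapped. Among the 3237 wild-type peaks of the same decile of fold enrichment as Mycn and Mycl, 3237 were overlapped in Taf5l-KO and 3236 in Taf6l-KO. Retention of H3K4me3 at these genes was therefore what nearly every peak of their strength showed. The knockout peaks covered 97.3% and 92.3% of the wild-type peak at Mycn, 96.3% and 74.6% at Myc, and 85.8% and 83.4% at Mycl. Of the 4 Taf5l-KO H3K4me3 peaks in the windows 3 overlapped a wild-type peak, against 85.8% of the whole Taf5l-KO list, and in Taf6l-KO 4 of 4 did, against 89.5%.

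H3K9ac, the mark for which SAGA-type acetyltransferases are known, was listed at none of the 3 genes, wild-type cells included. The wild-type H3K9ac list is short, and 12.2% of the 32370 wild-type H3K4me3 peaks overlapped one of its peaks. Among wild-type H3K4me3 peaks in the same deciles of both fold enrichment and width, 63 of 317, or 19.9% (exact 95% interval 15.6 to 24.7), carried H3K9ac for Myc. The share was 38.4% (34.4 to 42.5) of 578 for Mycn and 16.7% (13.7 to 20.1) of 551 for Mycl. Absence from the list was the more frequent state in each of the 3 sets.

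The nearest wild-type H3K9ac peak lay 3.97 kb beyond the Mycl window (122693973 to 122694283, fold enrichment 4.21), 296 kb from the Mycn window and 772 kb from the Myc window. In the RefSeq gene table of GRCm38 the neighbours of Mycl are Mfsd2a and Trit1, those of Myc are Gm18788 and Pvt1, and those of Mycn are Rpl36-ps3 and Gm48201. To which gene the peak near Mycl belongs was not analysed here. In Taf5l-KO the nearest H3K9ac peaks were 2.16 Mb or more away from each window and in Taf6l-KO 1.77 Mb or more, in lists that met 0.333% and 2.97% of the H3K4me3 peaks of their genotype. Because wild-type cells listed no H3K9ac peak here, the windows hold no comparison of H3K9ac between genotypes.

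The Myc antibody lists had no peak in any window in any genotype. In wild-type cells the nearest were 2.16 Mb from Mycl, 4 Mb from Mycn and 13.1 Mb from Myc. Of the wild-type H3K4me3 peaks 1.28% overlapped a wild-type Myc antibody peak, and of those most like Mycn in enrichment and width 6.75% (4.84 to 9.11) did. For Myc and Mycl these shares were 3.47% (1.74 to 6.12) and 1.27% (0.512 to 2.60). Binding of Myc to its own family's genes was therefore not detected at the depth and threshold of these lists.

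Total RNA polymerase II was listed at all 3 genes in every genotype, each time with a peak inside H3K4me3. Of all wild-type H3K4me3 peaks 48.5% overlapped a wild-type RNAP peak. The wild-type RNAP peak at Myc, from 61816508 to 61817308, had a fold enrichment of 15.1 and ranked 168th of 29370, 0.572% from the top. The Taf5l-KO peak (61816011 to 61817280, fold enrichment 9.62) ranked 974th of 20583, and the Taf6l-KO peak (61816011 to 61817277, 9.13) ranked 2506th of 26734. In each genotype the Myc peak was in the top 10% of its list. Both knockout peaks began at the same base, below the start of the wild-type one. In Taf6l-KO a further RNAP peak of 341 bp lay from 61818561 to 61818901 (fold enrichment 4.95), inside the second of the 2 H3K4me3 pieces, and no wild-type peak overlapped it.

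At Mycn wild-type cells and Taf6l-KO listed 3 RNAP peaks each and Taf5l-KO listed 4. The widest wild-type peak, from 12948376 to 12950098 (1723 bp), lay at the high-coordinate end of the H3K4me3 peak with a fold enrichment of 5.47, 26.1% from the top. The Taf5l-KO peak there was 2722 bp wide (6.68, 20.4%) and covered it whole, and the Taf6l-KO peak was 1309 bp wide (6.88, 24.5%) and covered 76.0% of it. In the RefSeq table Mycn runs on the minus strand, so this end would be that of the gene start if the orientation is the same in mm9. A weaker peak lay inside the H3K4me3 peak in all genotypes, with fold enrichments of 3.92, 4.47 and 3.88, and Taf5l-KO listed another from 12943721 to 12944225 (3.83) that was not in the wild-type list.

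A separate RNAP peak lay 9118 bp below the Mycn H3K4me3 peak and carried no H3K4me3 in any genotype. It ran from 12933864 to 12934378 in wild-type cells, with a fold enrichment of 3.62. The Taf5l-KO peak (12933864 to 12934320) had a fold enrichment of 7.64 and the Taf6l-KO peak (12933878 to 12934297) one of 7.21. It ranked 24201st of 29370 in the wild-type list, 2662nd of 20583 in that of Taf5l-KO and 5773rd of 26734 in that of Taf6l-KO. In the knockout lists it was the RNAP peak of highest fold enrichment in the Mycn window, and in the wild-type list the one of lowest. By pileup this order did not hold. The peak at the edge of H3K4me3 had the higher pileup in Taf5l-KO (11.8 against 10.7) and in Taf6l-KO (12.9 against 9.37). In wild-type cells the separate peak had a pileup of 5.68, above the 4.77 of the inner peak. By −log10 q the separate peak was the higher in Taf5l-KO (8.56 against 8.08) but not in Taf6l-KO (7.68 against 8.31). Unique tags were 5174150 in the wild-type RNAP library, 15865460 in Taf5l-KO and 7236644 in Taf6l-KO. The part of depth in the ranks of the separate peak was not tested.

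Mycl had a single weak RNAP peak, 148 bp wide in wild-type cells (122673208 to 122673355, fold enrichment 4.30), 565 bp in Taf5l-KO (3.96) and 431 bp in Taf6l-KO (4.21). It ranked 51.8%, 78.6% and 70.7% from the top of its lists and lay inside the H3K4me3 peak. The phosphorylated forms were not listed there in any genotype. Their nearest peaks were 12 kb (wild type), 23.5 kb (Taf5l-KO) and 5.64 kb (Taf6l-KO) beyond the window for RNAP-ser2, and 30, 44.1 and 45.8 kb for RNAP-ser5.

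All 5 wild-type RNAP peaks of the windows were overlapped in Taf5l-KO and in Taf6l-KO (100%, exact 95% interval from 47.8%). The whole list gave 52.5% and 60.4%, both inside this interval. Of the 5 peaks 3 lay in the Mycn window. Retention was the less frequent outcome in the deciles of 3 of the 5 peaks for Taf5l-KO and of 2 for Taf6l-KO. In the decile that holds the separate peak at Mycn 21.8% were overlapped in Taf5l-KO and 27.2% in Taf6l-KO, and in that of the weak inner peak there 37.6% and 46.2%. In that of the Mycl peak the shares were 46.1% and 53.7%. For the strong peak at Myc 96.2% and 98.3% of its decile were overlapped. Of the 6 Taf5l-KO and 6 Taf6l-KO peaks in the windows 5 each overlapped a wild-type peak, against 72.7% and 66.8% over the lists.

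**Figure D2:**
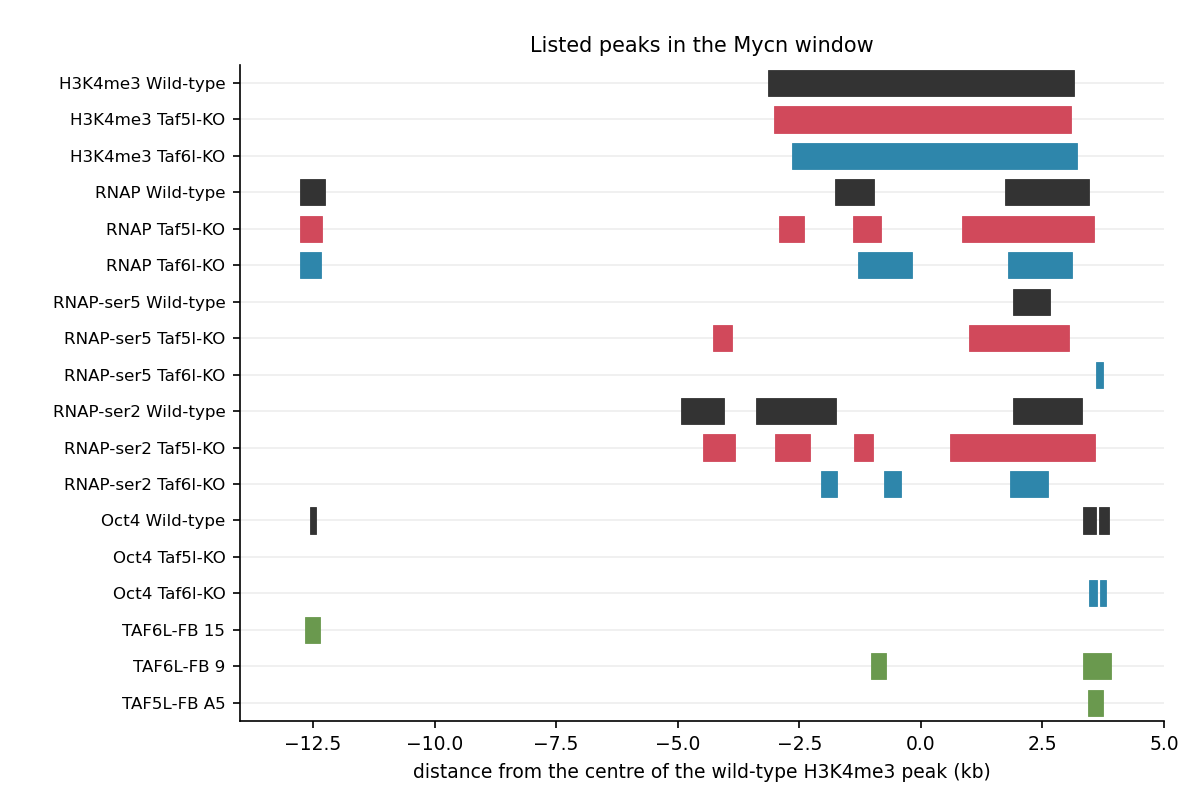
Listed peaks in the Mycn window as bars, by list (rows), placed by their distance in kb from the centre of the wild-type H3K4me3 peak. Wild type is black, Taf5l-KO red, Taf6l-KO blue and tagged proteins green. Lists with no peak in the window are left out, except Oct4 in Taf5l-KO. Polymerase lies along the H3K4me3 peak. Oct4 lies at its high-coordinate edge and at the separate RNAP peak at the left, and so do the tagged proteins, except 1 TAF6L-FB line 9 peak inside H3K4me3.

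RNAP-ser5 was listed at Myc and Mycn. At Myc the wild-type peak (61817046 to 61817268, fold enrichment 5.05) ranked 1452nd of 45366 and the Taf5l-KO peak (61817038 to 61817416, 4.20) ranked 9428th of 22190, while Taf6l-KO had none nearer than 130 kb below the window. At Mycn the wild-type peak of 769 bp (3.48) ranked 52.2% from the top. The Taf5l-KO peak there was 2055 bp wide (5.86) and in the top 5.54% of its list. In the wild-type decile that holds the Myc peak 55.1% were overlapped in Taf5l-KO and 43.8% in Taf6l-KO. In that of the Mycn peak the shares were 21.6% and 12.1%. Both wild-type peaks were overlapped in Taf5l-KO (2 of 2, against 26.2% of the whole list). Neither was in Taf6l-KO (0 of 2, against 16.5%).

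The Taf6l-KO library that lacked them was the shallowest of the series, with 1702363 unique tags against 3871824 in wild-type and 8807133 in Taf5l-KO cells, and the part of depth in the missing peaks was not tested. With a reach of 1000 bp in place of overlap, 1 of the 2 wild-type peaks, or 50%, was met in Taf6l-KO. Exact 95% intervals on 2 peaks run from 15.8% to 100% and from 0% to 84.2%. Taf6l-KO listed 1 RNAP-ser5 peak in the windows, of 137 bp from 12950249 to 12950385 (fold enrichment 3.83). It began 469 bp above the Mycn H3K4me3 peak, overlapped wild-type and Taf6l-KO Oct4 peaks, and overlapped no wild-type RNAP-ser5 peak. Of the 3 Taf5l-KO peaks 1, from 12942374 to 12942763, also overlapped no wild-type RNAP-ser5 peak. Over the lists 51.7% of Taf5l-KO and 47.4% of Taf6l-KO peaks overlapped a wild-type peak.

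RNAP-ser2 at Myc was led by a wild-type peak from 61816942 to 61817290 with a fold enrichment of 7.75, 366th of 43039. The peaks of Taf5l-KO (61816403 to 61817248, 3.31) and Taf6l-KO (61816597 to 61817219, 5.03) ranked 28759th of 31583 and 6295th of 42451. By −log10 q the Taf5l-KO peak stood 80.7% from the top of its list, against 91.1% by fold enrichment. A second wild-type peak, from 61823499 to 61823761 (3.18), lay 3636 bp above the H3K4me3 peak, was near the bottom of its list at 96.8% and was overlapped in neither knockout.

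At Mycn RNAP-ser2 was spread over several weak peaks. Wild-type cells listed 3, of 895, 1648 and 1417 bp, with fold enrichments of 3.93, 3.89 and 3.69. Taf5l-KO listed 4, of 670, 706, 383 and 2973 bp, with fold enrichments of 4.14, 3.28, 4.22 and 4.26. Taf6l-KO listed 3 of 320, 345 and 778 bp, with fold enrichments of 2.95, 3.41 and 4.11, the first of which had a −log10 q of 1.05, just above the broad cutoff. The peak at the high-coordinate end was present in every genotype, and the wild-type peak at the other end, from 12941702 to 12942596, was overlapped in Taf5l-KO only.

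Over the windows 4 of 5 wild-type RNAP-ser2 peaks, or 80% (exact 95% interval 28.4 to 99.5), were overlapped in Taf5l-KO and 3 of 5, or 60% (14.7 to 94.7), in Taf6l-KO. The whole list gave 36.6% and 38.7%, both inside these intervals. In the decile of the strongest peak at Myc 72.2% were overlapped in Taf5l-KO and 75.8% in Taf6l-KO. In that of the second peak at Myc the shares were 22.2% and 25.7%. In those of the Mycn peaks they were 30.6% to 35.4% and 31.2% to 36.7%. Where 50% of the wild-type peak had to be covered, the share was 40% (2 of 5) in each knockout. With peaks of −log10 q of at least 5 only, the peak at Myc was the 1 wild-type peak left and met no such peak in either knockout. In the knockouts 4 of 5 Taf5l-KO and 3 of 4 Taf6l-KO peaks overlapped a wild-type one, against 50.2% and 43.3% over the lists. The other 2, a Taf5l-KO peak from 12945266 to 12945648 and a Taf6l-KO peak from 12945875 to 12946219, were both inside the Mycn H3K4me3 peak and did not overlap each other.

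**Figure D3:**
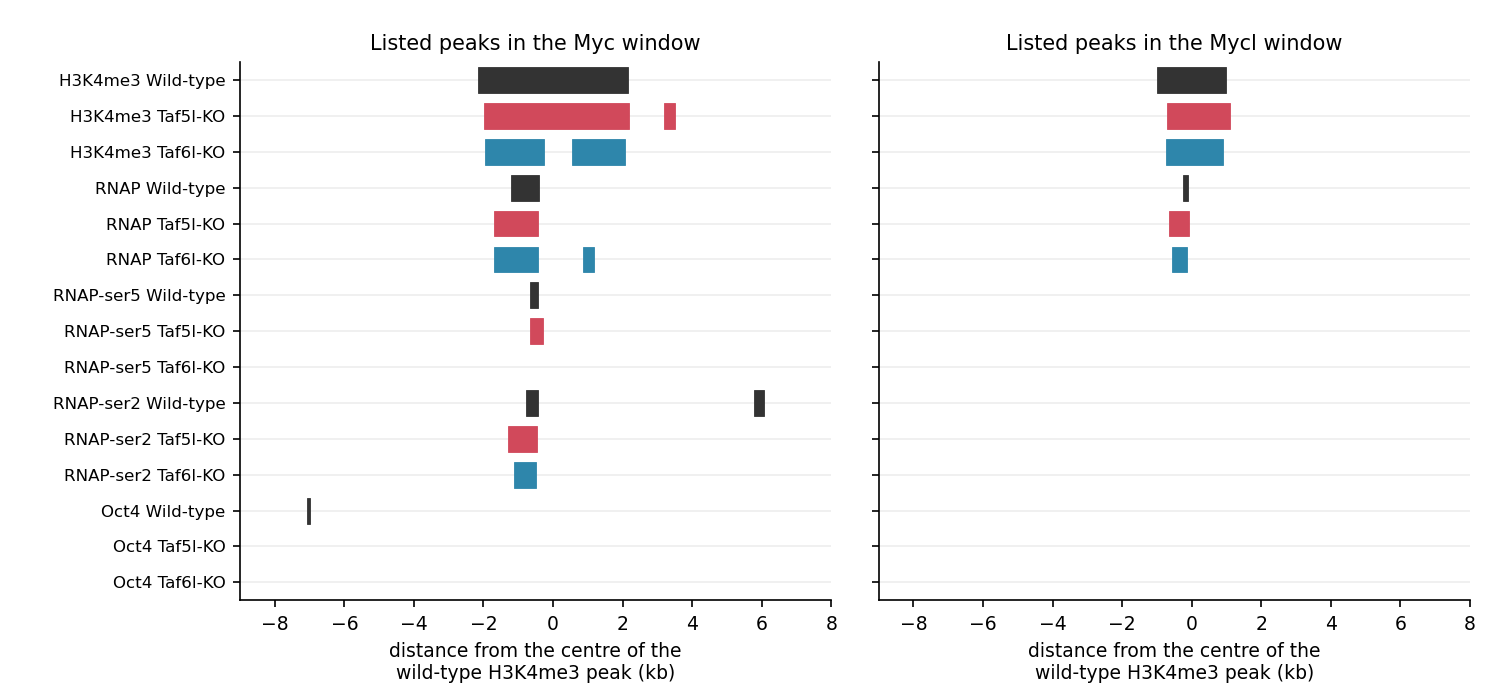
Listed peaks in the Myc (left) and Mycl (right) windows as bars, by list (rows), placed by their distance in kb from the centre of the wild-type H3K4me3 peak of that window, with wild type black, Taf5l-KO red and Taf6l-KO blue. Most polymerase peaks at Myc lie over the low-coordinate part of the H3K4me3 peak, which Taf6l-KO lists in 2 pieces. The exceptions are a Taf6l-KO RNAP peak over its other part and a wild-type RNAP-ser2 peak 3636 bp above it. Mycl holds H3K4me3 and RNAP only.

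Oct4, a POU transcription factor needed for pluripotency, had 4 wild-type peaks in the windows. At Myc there was 1, from 61810626 to 61810734 (109 bp), 4828 bp below the H3K4me3 peak, with a fold enrichment of 4.28 that ranked 2516th of 2564. At Mycn there were 3. One, from 12934076 to 12934190 (4.59, 2494th), lay within the separate RNAP peak. The other 2, from 12949980 to 12950234 (255 bp, 6.11, 2071st) and from 12950300 to 12950503 (204 bp, 8.32, 1035th), lay 65 bp apart, with summits at 12950142 and 12950417, and began 200 bp above the H3K4me3 peak. The peaks at Myc and at the separate RNAP peak were among the weakest 10% of the wild-type list, and the pair was stronger.

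Taf5l-KO listed no Oct4 peak in any window. Taf6l-KO listed the pair at Mycn, from 12950094 to 12950258 (fold enrichment 4.07, 2024th of 2049) and from 12950319 to 12950454 (6.01, 1722nd of 2049), and nothing else. These peaks covered 55.3% and 66.7% of the wild-type pair. The first was near the bottom of its list, at a −log10 q of 1.36, 2042nd of 2049 by that measure. In Taf5l-KO the nearest Oct4 peaks were 119 kb from the Mycn window and 14.3 kb above the Myc window (61844305 to 61844458, fold enrichment 6.70).

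Of the 4 wild-type Oct4 peaks 0 were overlapped in Taf5l-KO (exact 95% interval 0% to 60.2%) and 2, or 50% (6.76 to 93.2), in Taf6l-KO. The whole list gave 59.1% and 46.5%, both inside these intervals. The intervals take the peaks as independent, and the pair, 65 bp apart, is hardly 2 independent sites. By decile of fold enrichment, the shares overlapped in Taf5l-KO were 46.7% for the weakest decile, 39.5% for that of the first peak of the pair and 55.3% for that of the second. In Taf6l-KO they were 33.9%, 27.3% and 37.0%. The Taf5l-KO list was the longest of the 3, with 3034 peaks, and unique tags were 8522959 for the wild type, 7068955 for Taf5l-KO and 6628480 for Taf6l-KO. Both Taf6l-KO peaks in the windows overlapped wild-type peaks, against 58.3% of that list. With peaks of −log10 q of at least 5 only, the 2 wild-type peaks left, which are the pair, met no such peak in either knockout.

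**Figure D4:**
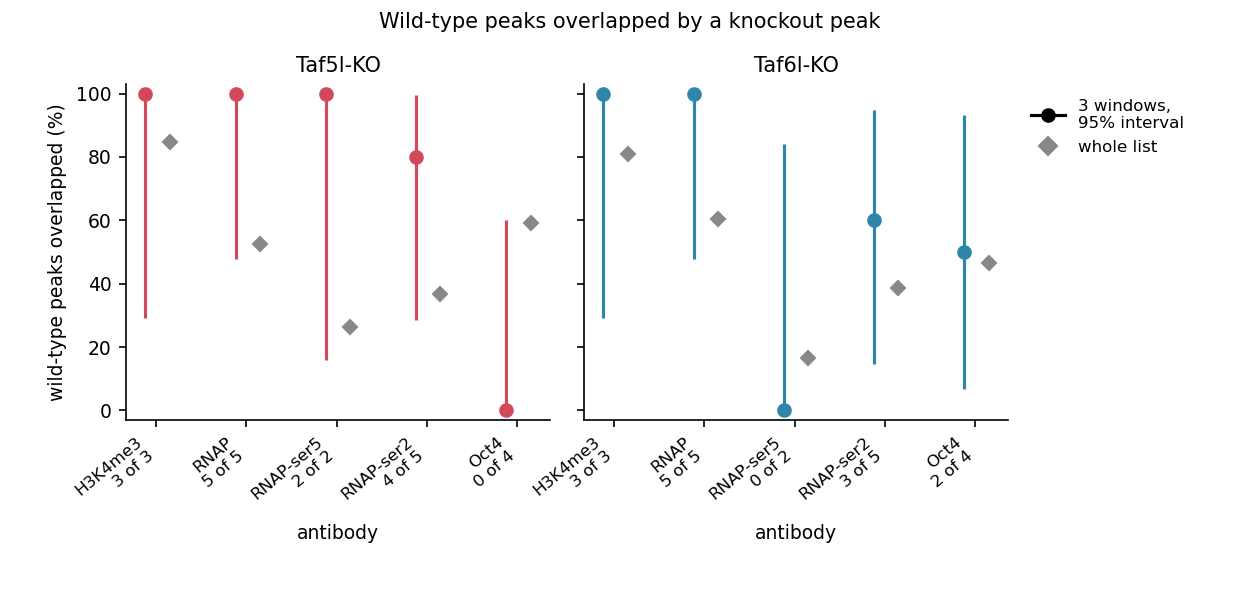
Share in percent of wild-type peaks overlapped by a Taf5l-KO (left) or Taf6l-KO (right) peak, by antibody, with the count under each name. Circles with bars are the peaks of the 3 windows with exact 95% intervals, and diamonds are the whole wild-type list. RNAP and H3K4me3 stand at 100% in both knockouts, and Oct4 stands at 0% in Taf5l-KO and 50% in Taf6l-KO, with wide intervals.

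The tagged proteins were listed at Mycn, at or near Oct4, and not at Myc or Mycl. TAF5L-FB line A5 had a peak from 12950069 to 12950379 (fold enrichment 3.27, 119th of 136) and TAF6L-FB line 9 one from 12949968 to 12950545 (5.34, 87th of 628), which held both peaks of the wild-type Oct4 pair. TAF6L-FB line 15 had a peak from 12933975 to 12934274 (4.03, 705th of 1140), with its summit 17 bp from that of the Oct4 peak in the separate RNAP peak. Another TAF6L-FB peak, from 12945623 to 12945922 in line 9 (4.57, 39.6% from the top), lay inside the H3K4me3 peak, where no Oct4 peak was listed.

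None of these places was found in both lines of a protein, and BirA had no peak in any window. The BirA list held only 24 peaks, called with a fragment of 49 bp against 300 bp for the TAF lists. Its absence from the windows therefore says little about background. Leaving out line A5 left 0 TAF5L-FB regions at the 3 genes in place of 1, and leaving out TAF6L-FB line 9 left 1 in place of 3. The place of the pair was nevertheless shared by a TAF5L-FB and a TAF6L-FB line. Over the genome 39 of 2564 wild-type Oct4 peaks, or 1.52%, overlapped regions of both tagged proteins, 10.0% a TAF6L-FB region and 1.99% a TAF5L-FB region, the pair at Mycn supplying 2 of the 39. Of those 39, 10 were overlapped by no Taf5l-KO Oct4 peak (0.390% of all wild-type Oct4 peaks), the same 2 among them. Over the whole list 1515 of 2564 wild-type Oct4 peaks, or 59.1%, were overlapped in Taf5l-KO. Absence was thus less frequent among the 39 than over the list, but the 39 were not matched to the list by fold enrichment. In the other direction, 35.3% of the 136 TAF5L-FB regions and 15.5% of the 1625 TAF6L-FB regions overlapped a wild-type Oct4 peak.

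The separate place at Mycn joined Oct4, TAF6L-FB and RNAP in wild-type cells, with RNAP but not Oct4 listed in the knockouts. It is 1 of 68 wild-type Oct4 peaks (2.65%) with a TAF6L-FB region and RNAP in all 3 genotypes but no wild-type H3K4me3. That set was defined by traits listed at this place, so its membership there is not a result. Of all wild-type Oct4 peaks 24.1% overlapped a wild-type RNAP peak. Among the 184 that did so and were overlapped by Oct4 in neither knockout, 135, or 73.4%, had RNAP in both.

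Across antibodies, 14 of the 19 wild-type peaks of the knockout series in the windows were overlapped in Taf5l-KO and 13 in Taf6l-KO, both set against the same wild-type libraries. Over the whole lists of the same 5 antibodies together 47.1% and 45.3% were overlapped, shares that the long polymerase lists weigh on most. By gene the counts were 8 and 8 of 11 at Mycn, 4 and 3 of 6 at Myc, and 2 and 2 of 2 at Mycl. The peaks that were not overlapped were all of Oct4 or of the phosphorylated polymerase forms. For the latter most peaks of the whole lists were not overlapped either. Of the whole Oct4 list 59.1% were overlapped in Taf5l-KO and 46.5%, the smaller part, in Taf6l-KO. In Taf5l-KO the peaks not overlapped were 4 Oct4 peaks and 1 RNAP-ser2 peak. In Taf6l-KO they were 2 of each of Oct4, RNAP-ser5 and RNAP-ser2.

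**Figure D5:**
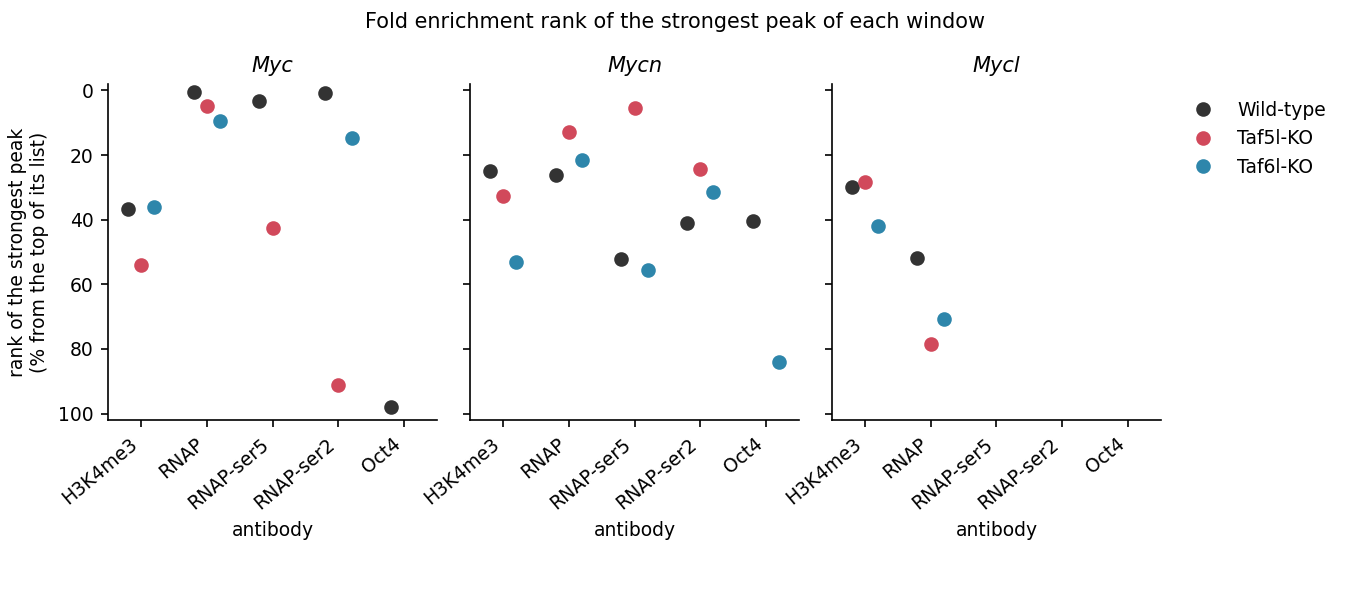
Place of the strongest peak of each window in its list, in percent from the top by fold enrichment (0 is the strongest), by antibody and genotype (wild type black, Taf5l-KO red, Taf6l-KO blue), with no point where the list had no peak there. Total and serine 2 polymerase at Myc are within the top 1% in wild-type cells, H3K4me3 lies between 24.9% and 54.1% at all 3 genes, and lists of different lengths are not compared. For RNAP at Mycn the wild-type point is the peak at the edge of H3K4me3 and the knockout points are the separate peak.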

How the data were processed

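The 26 peak lists, 1 per immunoprecipitated library, were used as deposited. Bowtie2 2.3.2, MACS2 2.1.1.20160309 and deepTools 2.5.3 and the build mm9 are named in the submitters' processing notes. Per the file headers, peaks were called against an input, with 1 tag kept per position and a q cutoff of 0.05, with broad linking (cutoff 0.1) for H3K4me3, H3K9ac and polymerase. The fragment size was modelled, but set to 300 bp for the TAF lists, per the file headers. Per the file headers the larger of ChIP and input was scaled to the smaller. Each peak has the authors' pileup (a signal), fold enrichment (a ratio), −log10 p and −log10 q, and its width, as deposited.

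Ranks were taken within each list, over the peaks of chromosomes 1 to 19, X and Y, with pandas 2.3.3. TAF regions were joined over lines, without BirA regions. Deciles of a list run from the strongest to the weakest peaks. Shares carry exact (Clopper-Pearson) 95% binomial intervals from scipy 1.17.1, which cover counting error only. The overlap step was tested on simulated lists and found 30% where 30% of 4000 peaks had been made to overlap. Named peaks are all those of Oct4, Myc, H3K9ac, BirA and TAF lists in a window, the strongest or unshared ones of the others, and the nearest outside. Some others of the polymerase lists were added after their values were seen. Windows, members and lists were chosen with earlier results of these data known. Other genes of the Myc network were not analysed here, since no mm9 positions were used, and inputs were used only through the lists.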

Additional observations from a re-analysis of the deposited data

How the results depend on the processing

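Each overlapped share was recomputed with −log10 q of at least 5, 50% coverage, a reach of 1000 bp, peaks less than 1000 bp apart merged, and windows 10000 bp wider or 5000 bp narrower on each side. Of 58 such values 55 stayed within the exact 95% interval of the reported share, which is wide for 2 to 5 peaks. Among these, H3K4me3 went from 100% to 80% in each knockout with wider windows. RNAP went from 100% to 83.3% in Taf5l-KO with wider windows and to 80% in Taf6l-KO with 50% coverage. RNAP-ser5 in Taf6l-KO went from 0% to 50% with a reach of 1000 bp. With 50% coverage RNAP-ser2 went to 40% in each knockout, from 80% (Taf5l-KO) and 60% (Taf6l-KO). Oct4 in Taf6l-KO went from 50% to 33.3% with merged peaks. The 3 outside fell to 0%, all with −log10 q of at least 5, where 1 or 2 wild-type peaks were left: RNAP-ser2 in Taf5l-KO and in Taf6l-KO, and Oct4 in Taf6l-KO. No wild-type RNAP-ser5 peak in the windows passed that threshold. Widening the windows brought 1 wild-type H3K9ac peak in, beside Mycl, where there had been 0. With −log10 q of at least 5 the TAF5L-FB regions went from 1 to 0 and the TAF6L-FB regions from 3 to 1. Leaving out each line gave 0 to 1 TAF5L-FB and 1 to 2 TAF6L-FB regions. Ranked by −log10 q, all 35 strongest peaks stayed on the same side of the middle of their list, and ranked by width 26 of 35 did. No paired analysis was possible because each antibody and genotype has 1 library and the results come from no test. Listed peaks depend on tag depth and on the input, so a place that is not listed may still be bound.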
